A study of Homo sapiens with 6 samples.

Results

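Kinesins are motor proteins that use ATP to walk along microtubules or to take them apart. In dividing cells, a set of mitotic kinesins builds the bipolar spindle, aligns and separates the chromosomes and then cleaves the cell, and their transcripts are known to be made mainly in the G2 and M phases. A second set, the transport kinesins, moves vesicles, mitochondria and ciliary cargo along microtubules in cells that divide and in cells that do not. The kinesin genes were taken by symbol from the deposited gene count table, as KIF followed by a number and letters, or KIFC1, KIFC2 and KIFC3. This gave 42 genes of 26334 in the table, of which 14 were grouped as mitotic, 15 as transport and 13 as other, by their known roles.

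The samples were 6 poly-A RNA-seq libraries of MCF10DCIS.com (hereafter MCF10DCIS), a human breast cancer cell line of the MCF10A lineage with basal features. There were 3 control libraries (shLuc, an shRNA against luciferase, which human cells lack) and 3 libraries of WDR5-silenced cells (shWDR5). WDR5 is the WD-repeat subunit of histone H3 lysine 4 methyltransferase complexes, and the comparison asked which transcripts change when it is silenced. Both groups carried the same pRSI-U6 vector with TagRFP and puromycin resistance, were selected with 3 µg/ml puromycin and were grown in DMEM/F12 with 5% horse serum. The labels give neither the hairpin or hairpins used nor the time after infection, and the data come from a single cell line. Total counts were 48500509, 38218108 and 39327358 for shLuc and 47723477, 57640167 and 46097058 for shWDR5. The labels number the replicates 1 to 3 but do not say whether they were separate cultures, so p-values measure the spread between these libraries.

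WDR5 itself was measured first, as a check of the labels. Levels are given as CPM, the read count scaled to library size after TMM normalization. WDR5 was at 52.6, 48.5 and 51.3 CPM in shLuc and at 23.4, 24.4 and 20.8 CPM in shWDR5. The groups did not overlap, and the shWDR5 mean was 44.9% of the control mean (log2 fold change -1.15, SE 0.07, edgeR quasi-likelihood test, adjusted p = 8.67e-07). Of 9 basal and epithelial markers, all detected in both groups, 5 were called higher in shWDR5 (55.6%, against 26.6% of all genes tested), 2 lower (22.2%, against 29.9%) and 2 not called, with KRT17 at 2159 ± 96.8 CPM in shLuc and 4131 ± 313 in shWDR5, and KRT8 at 2024 ± 76.3 and 2077 ± 110 (SD, n = 3). The lower ones were CDH1 (E-cadherin), which went from 496 ± 20.4 to 242 ± 6.88 CPM (log2 fold change -1.03, SE 0.05, adjusted p = 2.64e-07), and EPCAM (-0.33, SE 0.07, adjusted p = 0.00317). The part of these changes in the kinesin results was not tested. Markers of other cell types were mostly low. The fibroblast markers summed to 22.7 CPM in shLuc and 16.1 in shWDR5, nearly all from COL1A1, the immune markers to 1.65 and 0.904, and the endothelial markers to 7.71 and 5.04. The neuronal markers summed to 50 and 88.4 CPM, nearly all from the tubulin gene TUBB3. Some low markers were also called, with RBFOX3 (neuronal) at 1.1 CPM in shLuc and 2.93 in shWDR5, SYP (neuronal) at 0.979 and 0.297, and CD14 (myeloid) at 1.63 and 0.793 CPM. LUM, CD3E and STMN2, which define fibroblasts, T cells and neurons, had no read in any library, and the part of these markers in the results was not tested.

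Of the 16117 genes that passed the filter on low counts, 56.5% were called at an adjusted p under 0.05, with 29.9% lower and 26.6% higher in shWDR5. Kinesin counts have to be read against this background. Among the 42 kinesins, 35 passed the filter, and 19 of them were lower, 7 higher and 9 not called.

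The mitotic kinesins were lower throughout. All 12 mitotic kinesins that passed the filter were called lower in shWDR5 (100%, against 29.9% of all genes tested). None of them was called higher by edgeR or DESeq2, or at an unadjusted p under 0.05. Their median log2 fold change was -0.84, against -0.01 over all genes tested, and ranged from -1.20 for KIF14 to -0.49 for KIF18A. The transport kinesins divided otherwise, with 3 lower, 4 higher and 7 not called of 14 tested, and a median of -0.05. Their shares (21.4% lower and 28.6% higher) were not far from those of all genes tested (29.9% and 26.6%). Of the 4 called higher, KIF17 passed the filter only through the silenced group, and KIF1C was not called when any single library was left out. The count of higher calls was 2 without shLuc replicate 1 and 3 without any other single library. The smallest mitotic decrease was that of KIF18A (-0.49). Among transport kinesins, the lowest log2 fold changes were those of KIF16B, which was called, and KIF5A (both -0.38). KIF5A was not called (SE 0.40, adjusted p = 0.452, edgeR). This order did not hold in every fit, since KIF5A, with few reads, was at -0.75 and KIF18A at -0.40 without shWDR5 replicate 1. They were at -0.65 and -0.59 without shLuc replicate 1, and at -1.01 and -0.49 without both replicate 1 libraries. The order also did not hold when KIF21B (-0.74) was counted as transport and KIF2A (-0.31) as mitotic. In RNA from whole cultures, fewer dividing cells and less mRNA per dividing cell cannot be told apart.

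**Figure D1:**
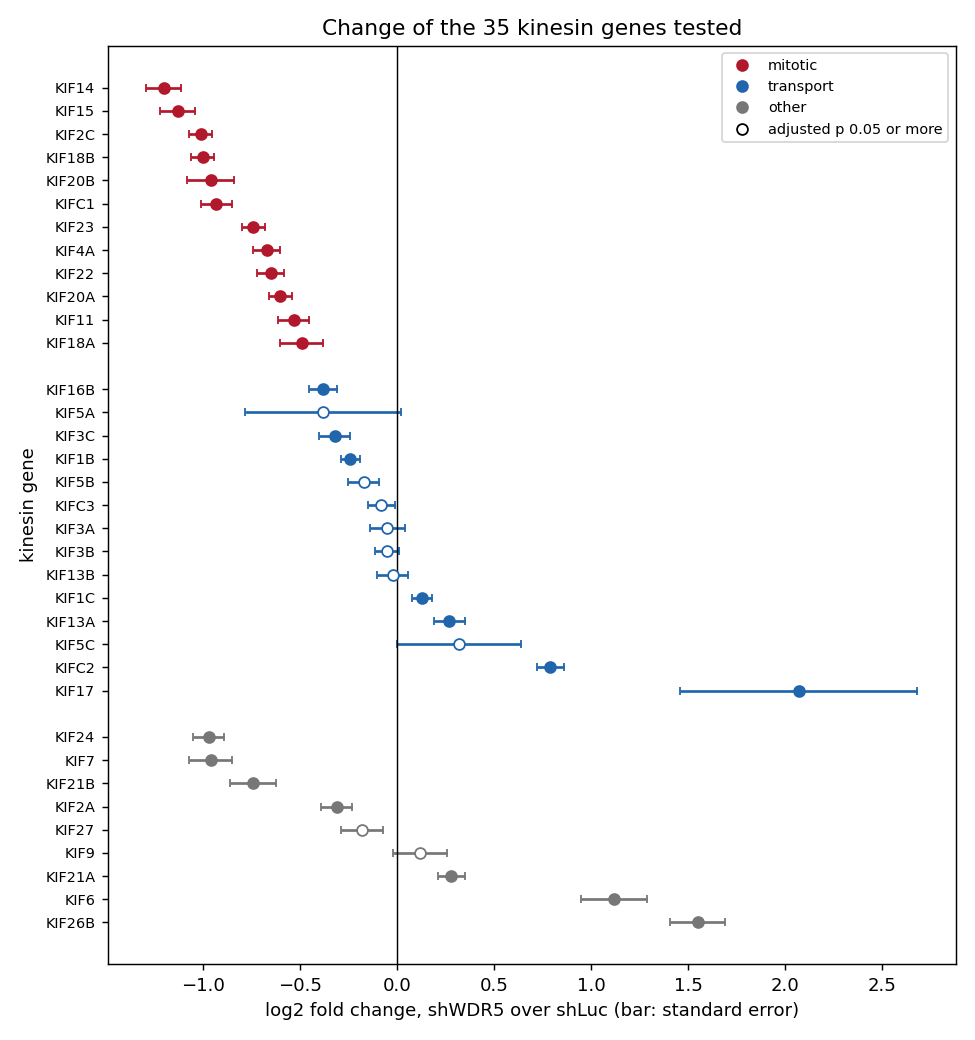
Log2 fold change of shWDR5 over shLuc (horizontal axis) for each of the 35 kinesin genes tested, grouped as mitotic, transport and other, with bars for the standard error and open circles for genes not called. All 12 mitotic kinesins lie to the left of 0, between -1.20 and -0.49, whereas the 14 transport kinesins lie on both sides.

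The promoters of the mitotic kinesins shared sequence features that the grouping did not use. Many genes of the G2 and M phases are known to carry a CHR element (TTTGAA or TTCGAA) close to the transcript start, which is bound by the MuvB core of the DREAM and B-MYB complexes, often with a CCAAT box upstream that is bound by NF-Y. Both motifs were searched on both strands in RefSeq promoter windows of GRCh38 (bases -250 to 49, with the start as base 0), where 14 mitotic and 11 transport kinesins had a window. A CHR match was found in 11 of 14 mitotic kinesins (78.6%) and in 1 of 11 transport kinesins (9.09%), against 19.5% of all 27305 genes with a window. A CCAAT match was found in 11 of 14 mitotic kinesins (78.6%), in 4 of 11 transport kinesins (36.4%) and in 39.7% of all genes. Both motifs together occurred in 71.4% of the mitotic kinesins and in 7.85% of all genes. A match describes the letters and is not a binding site.

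To show this arrangement, bases -155 to 9 are given for KIF14, KIF18B, KIFC1, KIF23 and KIF4A, which hold both motifs and were lower in shWDR5, for KIF24, a centriolar kinesin with the same arrangement, and for the transport kinesins KIF5B and KIF1C. Each reads 5′ to 3′ on the strand of the gene, and capitals mark the CHR letters and the CCAAT box, read on that strand or as their reverse complements.
KIF14 (chr1:200620742-200620906, minus strand): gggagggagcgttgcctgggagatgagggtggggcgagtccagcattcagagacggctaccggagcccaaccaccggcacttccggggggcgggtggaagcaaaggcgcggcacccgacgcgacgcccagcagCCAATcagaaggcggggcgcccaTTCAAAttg
KIF18B (chr17:44947764-44947928, minus strand): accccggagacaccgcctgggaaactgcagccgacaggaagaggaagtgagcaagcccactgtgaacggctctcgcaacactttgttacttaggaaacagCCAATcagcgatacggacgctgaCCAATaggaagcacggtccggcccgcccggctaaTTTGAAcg
KIFC1 (chr6:33391668-33391832, plus strand): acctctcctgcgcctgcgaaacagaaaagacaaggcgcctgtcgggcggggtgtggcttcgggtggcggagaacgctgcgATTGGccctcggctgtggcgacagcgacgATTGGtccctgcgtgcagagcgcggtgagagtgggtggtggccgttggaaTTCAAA
KIF23 (chr15:69414194-69414358, plus strand): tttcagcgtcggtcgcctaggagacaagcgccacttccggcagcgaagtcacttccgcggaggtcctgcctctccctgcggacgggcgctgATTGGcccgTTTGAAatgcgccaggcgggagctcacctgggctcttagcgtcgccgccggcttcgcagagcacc
KIF4A (chrX:70289949-70290113, plus strand): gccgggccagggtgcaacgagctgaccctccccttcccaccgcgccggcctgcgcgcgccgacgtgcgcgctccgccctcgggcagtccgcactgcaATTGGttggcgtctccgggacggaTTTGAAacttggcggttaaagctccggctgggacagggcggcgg
KIF24 (chr9:34329259-34329423, minus strand): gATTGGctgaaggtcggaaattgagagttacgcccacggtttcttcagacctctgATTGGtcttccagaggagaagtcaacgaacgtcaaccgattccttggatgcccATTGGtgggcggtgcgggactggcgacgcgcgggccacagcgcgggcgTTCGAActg
KIF5B (chr10:32056416-32056580, minus strand): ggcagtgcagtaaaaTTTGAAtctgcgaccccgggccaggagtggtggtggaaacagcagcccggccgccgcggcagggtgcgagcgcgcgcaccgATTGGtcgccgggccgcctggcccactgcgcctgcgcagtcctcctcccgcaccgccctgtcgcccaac
KIF1C (chr17:4997795-4997959, plus strand): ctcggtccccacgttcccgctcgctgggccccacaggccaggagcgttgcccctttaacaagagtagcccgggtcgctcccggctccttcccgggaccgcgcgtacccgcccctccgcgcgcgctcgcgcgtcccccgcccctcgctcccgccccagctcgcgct

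In KIF14, KIF18B, KIFC1 and KIF24 the CHR match started at base 1, 2, 4 and 1, downstream of the CCAAT matches. In KIF4A it lay upstream of the start, at bases -34 to -29, and in KIF23 at -55 to -50, downstream of a CCAAT match at -64 to -60. KIF5B was the exception among transport kinesins, with its CHR match at -140 to -135, upstream of its CCAAT match. KIF2C, 1 of the mitotic kinesins with the largest decreases, had no CHR or CCAAT match in its window, and KIF20A had CCAAT matches but no CHR match. KIF15, also among the largest decreases, had a CHR match but no CCAAT match. Over all 751 tested genes whose windows hold both motifs, 39.9% were called lower with a median log2 fold change of -0.10, against 31.7% and -0.03 over all 11381 tested genes with a window.

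Kinesins that build the bipolar spindle were examined first among the mitotic group. KIF11 (Eg5), which slides antiparallel microtubules to push the spindle poles apart, was at 69.3 ± 6.34 CPM in shLuc and 48.1 ± 3.85 in shWDR5 (SD, n = 3), a log2 fold change of -0.53 (SE 0.08, adjusted p = 0.000338). KIF15, which helps KIF11 to keep the spindle bipolar, was at 24.9, 24.9 and 25.1 CPM in shLuc and at 10.9, 13 and 10.3 in shWDR5. It fell to 45.7% of the control (log2 fold change -1.13, SE 0.09, adjusted p = 2.96e-06), and the groups did not overlap for either gene. KIFC1 (HSET, chr6:33359313-33377699 in hg19), a minus-end-directed motor that focuses the poles and clusters surplus centrosomes, was at 73.6, 75.5 and 62.8 CPM in shLuc and at 38.6, 36.7 and 35.9 in shWDR5. All 3 silenced libraries lay below every control (log2 fold change -0.93, SE 0.08, adjusted p = 4.21e-06).

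Kinesins that act on chromosomes and kinetochore microtubules also fell. KIF2C (MCAK), which depolymerizes microtubules at centromeres and corrects wrong attachments, was at 69.5, 66.5 and 61.2 CPM in shLuc and at 32.9, 33.3 and 32.0 in shWDR5. The silenced libraries were nearly identical and at 49.8% of the control mean (log2 fold change -1.01, SE 0.06, adjusted p = 8.56e-07). KIF18B, which shortens astral microtubules, was at 97.2, 97.8 and 86.5 CPM in shLuc and at 47.6, 47.7 and 46.0 in shWDR5. This was the mitotic kinesin with the smallest adjusted p (8.44e-07, log2 fold change -1.0, SE 0.06). Its relative KIF18A, which dampens chromosome oscillations at the metaphase plate, fell from 19.3 ± 2.57 to 13.8 ± 1.52 CPM (SD, n = 3, log2 fold change -0.49, SE 0.11, adjusted p = 0.0037). The ratio of KIF18A to KIF18B per length was 0.209, 0.266 and 0.295 in shLuc and 0.313, 0.380 and 0.394 in shWDR5, which did not overlap (exact two-sided permutation p = 0.1, the smallest that 3 against 3 libraries allow, and 0.14 adjusted over the 7 gene pairs compared).

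The chromosome-arm motors had close fold changes. KIF4A, a chromokinesin that also works with PRC1 at the spindle midzone, was at 42.8, 40.7 and 41.6 CPM in shLuc and at 27.6, 26.9 and 24.2 in shWDR5 (log2 fold change -0.67, SE 0.07, adjusted p = 1.72e-05). KIF22 (Kid), which generates the polar ejection force, was at 68.6, 64.4 and 60.2 CPM in shLuc and at 44.2, 40.3 and 39.0 in shWDR5 (log2 fold change -0.65, SE 0.07, adjusted p = 3.04e-05). The groups were apart for both genes, and both retained over 60% of the control level (63.0% and 63.9%). KIF4B, an intronless copy of KIF4A, had 2 to 8 reads per library, which the counting could have assigned to either gene, and did not pass the filter. KIF2B had no read in any library, which allows a level of up to 0.0528 to 0.0774 CPM depending on the library.

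Kinesins of the midzone and of cytokinesis included the most abundant and the most reduced members. KIF23 (MKLP1, chr15:69706585-69740766 in hg19), the motor of the centralspindlin complex, was at 149, 158 and 156 CPM in shLuc and at 88.2, 92.5 and 95.3 in shWDR5. It was the mitotic kinesin with the highest level per length in the controls (41.4 RPKM, that is, CPM per kilobase of exon) and fell to 59.7% (log2 fold change -0.74, SE 0.06, adjusted p = 2.13e-06). KIF20A (MKLP2), which carries the chromosomal passenger complex to the midzone, was at 122, 114 and 108 CPM in shLuc and at 79.2, 75.6 and 72.5 in shWDR5. Its decrease was among the smaller ones (log2 fold change -0.60, SE 0.06, adjusted p = 2.09e-05), with no overlap between groups.

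KIF14 (chr1:200520625-200589862 in hg19), which is required for completion of cytokinesis, was at 84.7, 97.9 and 91.5 CPM in shLuc and at 34.3, 42.3 and 42.5 in shWDR5. It showed the largest mitotic decrease, to 43.4% of the control (log2 fold change -1.20, SE 0.09, adjusted p = 2.23e-06). KIF20B (MPP1), which acts in late cytokinesis, was at 61.1, 81.7 and 74.5 CPM in shLuc and at 30.7, 40.5 and 40.7 in shWDR5 (log2 fold change -0.96, SE 0.12, adjusted p = 9.56e-05). Replicate 1 was the lowest library of its group for KIF14, KIF20B, KIF11, KIF18A and KIF23, in shLuc and in shWDR5, and the highest for KIF20A, KIF22 and KIF4A. Without both replicate 1 libraries, the 12 mitotic kinesins were still called lower and their median log2 fold change was -0.82.

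**Figure D2:**
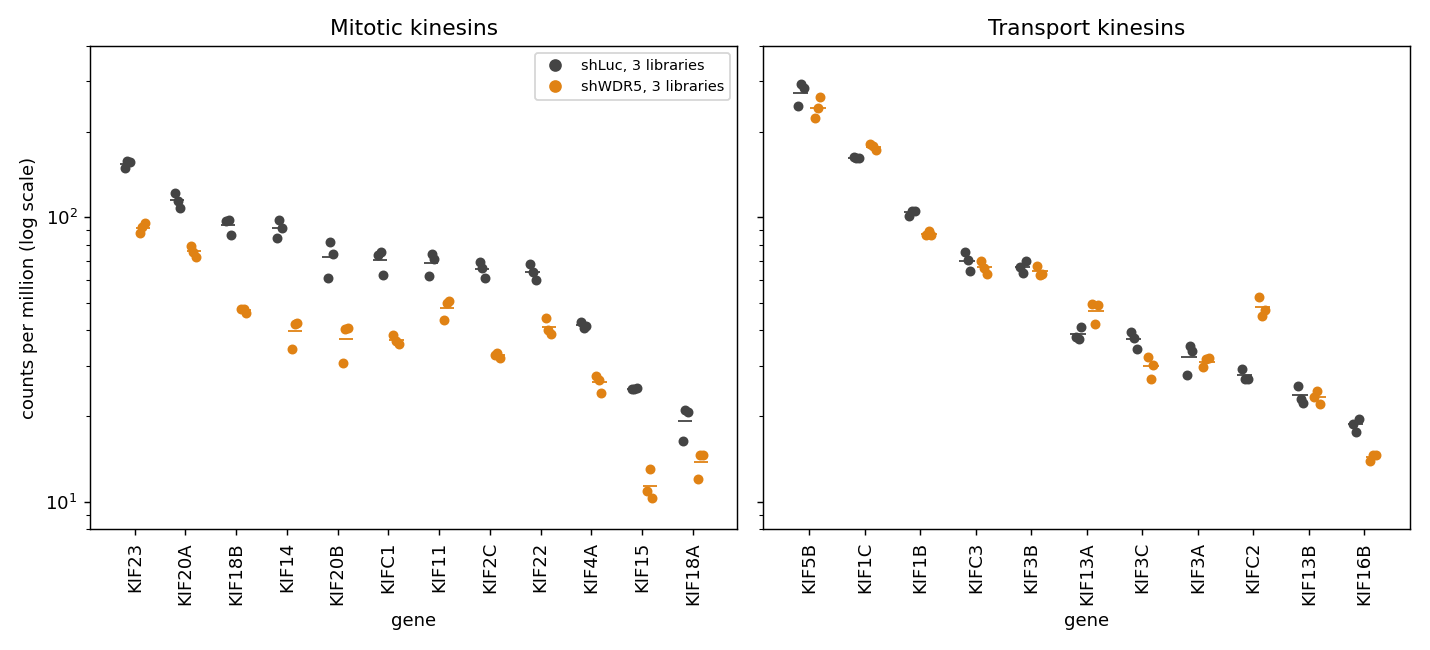
Level of each kinesin in CPM (log axis) in the 3 shLuc and the 3 shWDR5 libraries, for the mitotic and the transport kinesins tested with over 1 CPM in shLuc; points are libraries and lines are group means. The groups are apart for all 12 mitotic kinesins, whereas they overlap for KIF5B, KIFC3, KIF3B, KIF3A and KIF13B among the transport kinesins.

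Summed over all 14 genes, the mitotic kinesins were at 871, 917 and 860 CPM in shLuc and at 490, 514 and 504 CPM in shWDR5. The transport kinesins summed to 832, 873 and 864 CPM in shLuc and 831, 825 and 845 CPM in shWDR5, which overlapped. Mitotic kinesins thus made up 46.8% ± 0.885 of all kinesin reads in the control and 34.1% ± 0.591 after silencing, while transport kinesins went from 45.4% ± 0.517 to 56.6% ± 0.686 (SD, n = 3). These shares depend on each other, since they are parts of the same total.

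**Figure D3:**
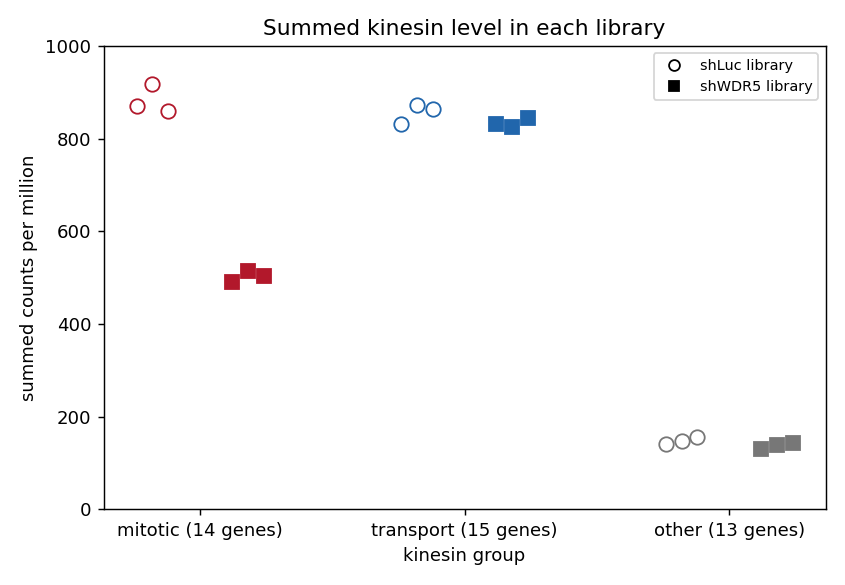
Summed CPM (vertical axis) of the mitotic, transport and other kinesins in each shLuc library (open circles) and each shWDR5 library (filled squares). The mitotic sum lies between 860 and 917 in shLuc and between 490 and 514 in shWDR5, while the transport sums of both groups lie between 825 and 873.

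Genes that work with the mitotic kinesins changed in the same direction. Of 19 spindle and midzone partners, all tested, 18 were called lower (94.7%, against 29.9% of all genes tested) and none higher by edgeR at the adjusted threshold (26.6% of all genes were), with a median log2 fold change of -0.79, and NUMA1, which anchors dynein at the poles, was not called (-0.02, SE 0.07). CENPE, the kinetochore kinesin whose symbol lies outside the KIF series, fell from 91.3 ± 10.9 to 50.2 ± 7.69 CPM (log2 fold change -0.86, SE 0.12, adjusted p = 0.000119). RACGAP1, the centralspindlin partner of KIF23, fell from 112 ± 1.12 to 57.6 ± 2.52 CPM (-0.96, SE 0.06, adjusted p = 4.77e-07). HMMR and SPAG5, spindle-associated proteins, both fell by 0.92 on the log2 scale, and TPX2, which activates Aurora A on the spindle and was lower by -0.90, showed a like size. BIRC5 (survivin), a subunit of the chromosomal passenger complex, had the smallest called decrease of the list (-0.19, SE 0.05, adjusted p = 0.012).

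Markers of proliferation moved together with the mitotic kinesins. MKI67, the Ki-67 antigen of cycling cells, fell from 519 ± 22.5 to 242 ± 4.01 CPM (SD, n = 3, log2 fold change -1.10, SE 0.05, adjusted p = 1.8e-07). Of 18 cell-cycle markers tested, 15 were lower (83.3%, against 29.9% of all genes tested), 1 was higher (5.56%, against 26.6%) and 2 were not called, with a median of -0.66 and a summed level of 3129 ± 22.2 CPM in shLuc and 2031 ± 21.7 in shWDR5. MKI67 had the highest CPM of the list in shLuc and CCND1 (cyclin D1, 488 and 508 CPM, not called) in shWDR5, and none of the markers was at 0. The replication licensing factors MCM5 (-1.24) and MCM6 (-1.11), the G2/M cyclin CCNA2 (-1.0) and MKI67 had the largest decreases, while CCNE1, the G1/S cyclin E1, was higher (0.48, SE 0.09, adjusted p = 0.000987). The part of a lower share of cycling cells in the kinesin result was not tested.

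Regulators that act on G2 and M promoters changed in both directions. Of 17 tested, 10 were lower (58.8%, against 29.9% of all genes tested), 3 higher (17.6%, against 26.6%) and 4 not called, with a median log2 fold change of -0.36. FOXM1, the activator of late cell-cycle genes, fell from 78.7 ± 4.66 to 43.5 ± 2.35 CPM (-0.86, SE 0.07, adjusted p = 2.96e-06), and MYBL2 (B-MYB) fell by 0.70 on the log2 scale (adjusted p = 1.1e-05), as did LIN52, a subunit of the MuvB core (-0.76). E2F8, a repressor of the E2F family, went from 6.26 ± 0.513 to 1.78 ± 0.354 CPM (-1.80, SE 0.14, adjusted p = 2.83e-06), whereas its relative E2F7 was higher (0.61, SE 0.07, adjusted p = 3.3e-05). The other regulators called higher were E2F4 (0.43, SE 0.07) and E2F5 (0.49, SE 0.07). LIN54, the DNA-binding subunit that recognizes the CHR, was not called (-0.08, SE 0.09, adjusted p = 0.514).

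The transport kinesins were taken by family. Of the kinesin heavy chains of the KIF5 family, which carry vesicles and mitochondria with the help of light chains, only KIF5B was abundant, at 246, 293 and 284 CPM in shLuc and 223, 242 and 265 CPM in shWDR5. It had the highest level per length of all kinesins in both groups (46.6 and 41.3 RPKM). The groups overlapped and the difference was not called (log2 fold change -0.17, SE 0.08, adjusted p = 0.0882), although it was called lower without shLuc replicate 1 (-0.24, adjusted p = 0.0266) or shWDR5 replicate 3 (-0.24, adjusted p = 0.0355). It was also called lower without both replicate 1 libraries and with a replicate block (both -0.17, adjusted p = 0.0301 and 0.00411, edgeR). KIF5A, a neuronal heavy chain, had 9, 12 and 15 reads in shLuc and 15, 11 and 6 in shWDR5, and KIF5C had 6 to 15 reads per library. Neither was called (adjusted p = 0.452 and 0.48), and depth limits both, with the log2 fold change of KIF5A between -1.01 and -0.15 over the alternative fits.

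The light chains of the KIF5 motors were called in both directions. KLC1 was higher (107 ± 2.37 to 130 ± 3.5 CPM, log2 fold change 0.28, SE 0.05, adjusted p = 0.001), and so were KLC2 (0.25) and KLC4 (0.23). KLC3 was lower (-0.59, SE 0.08, adjusted p = 9.21e-05). Per length, the ratio of KIF5B to KLC1 was 1.20, 1.49 and 1.43 in shLuc and 0.896, 0.998 and 1.12 in shWDR5, with no overlap. The exact two-sided permutation test again gave p = 0.1 (0.14 adjusted over the pairs).

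KIF3A and KIF3B, which form a heterodimeric motor of ciliary and vesicle transport with KIFAP3, were near their control levels. KIF3B was at 66.9 ± 3.14 CPM in shLuc and 64.6 ± 2.63 in shWDR5, and KIF3A at 32.3 ± 4.01 and 31.1 ± 1.21 (SD, n = 3), with log2 fold changes of -0.05 (SE 0.06 and 0.09) and overlapping groups. The ratio of KIF3A to KIF3B per length had the same mean in both groups (log2 -1.11 ± 0.20 and -1.11 ± 0.11, exact permutation p = 1). KIFAP3, the accessory subunit, was at 36.4 ± 0.434 and 33.3 ± 0.954 CPM (-0.13, SE 0.06, adjusted p = 0.0757). KIF3C, a motor subunit that can pair with KIF3A, was at 39.6, 37.5 and 34.5 CPM in shLuc and at 32.3, 27.1 and 30.3 in shWDR5. It was the member of this family that fell (-0.32, SE 0.08, adjusted p = 0.00675).

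KIF17, a homodimeric motor of the same family, had 2, 7 and 0 reads in shLuc and 16, 17 and 12 in shWDR5. All 3 silenced libraries were above the controls and it was called higher (log2 fold change 2.07, SE 0.61, adjusted p = 0.0137), but it passed the filter only through the silenced group. It was no longer called without shLuc replicate 1 (adjusted p = 0.0517), and leaving out a single library moved its log2 fold change from 1.54 (without shLuc replicate 3) to 3.61 (without shLuc replicate 2).

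Members of the kinesin-3 family, which move endosomes and secretory vesicles, changed little and in both directions. KIF1B, which transports mitochondria and synaptic vesicle precursors, was at 101, 105 and 105 CPM in shLuc and at 86.8, 89.5 and 86.4 in shWDR5 (log2 fold change -0.24, SE 0.05, adjusted p = 0.00234). KIF16B, a motor of early endosomes, was at 18.7, 17.6 and 19.6 CPM in shLuc and at 13.9, 14.6 and 14.6 in shWDR5 (-0.38, SE 0.07, adjusted p = 0.000968). Both were lower with no overlap between groups. KIF13A, which carries recycling endosomes and melanosome cargo, was instead higher, at 38.0, 37.4 and 41.1 CPM in shLuc and 49.4, 42.3 and 49.1 in shWDR5 (0.27, SE 0.08, adjusted p = 0.0103). KIF13B was not called (-0.02, SE 0.08, adjusted p = 0.823).

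KIF1C, which moves integrin-containing vesicles and was the second most abundant transport kinesin per length (20.4 RPKM in shLuc), was at 163, 162 and 161 CPM in shLuc and at 181, 178 and 172 in shWDR5. The groups did not overlap, but the shift was 1.09-fold and close to the threshold (log2 fold change 0.13, SE 0.05, adjusted p = 0.0431). It was not called in any of the 6 fits that left out a single library (adjusted p = 0.0508 to 0.12). KIF1A, a motor of neurons, had 1, 0 and 0 reads in shLuc and 6, 3 and 3 in shWDR5. Every silenced library was above every control, as for 29.9% of all genes tested, but KIF1A did not pass the filter.

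The C-terminal motors KIFC2 and KIFC3, which walk towards microtubule minus ends, differed from each other. KIFC2 was at 29.2, 27.0 and 27.1 CPM in shLuc and at 52.5, 44.8 and 47.2 in shWDR5. It was 1.74-fold higher (log2 fold change 0.79, SE 0.07, adjusted p = 9.65e-06), the largest increase among transport kinesins with over 1 CPM. Of its exon bases, 11.8% are shared with FOXH1 on the other strand, and the library kit does not mark strand. KIFC3, which acts at adherens junctions and in Golgi positioning, was at 75.7, 70.7 and 64.8 CPM in shLuc and at 70.4, 66.4 and 63.3 in shWDR5. Its groups overlapped and it was not called (-0.08, SE 0.07, adjusted p = 0.377).

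**Figure D4:**
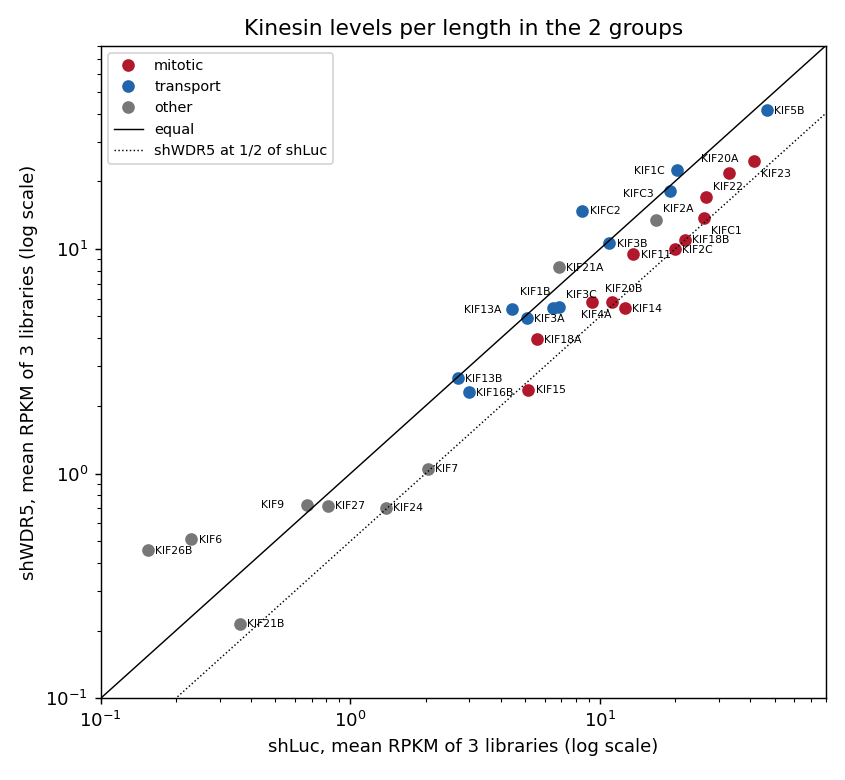
Mean level per length in shLuc (horizontal axis) and shWDR5 (vertical axis), in RPKM on log axes, for the kinesins tested with over 0.1 RPKM in shLuc; the solid line marks equal levels and the dotted line a level 1/2 of the control. Mitotic kinesins lie below the solid line at all levels, from KIF15 (5.16 RPKM in shLuc) to KIF23 (41.4 RPKM), and KIFC2 lies above it.

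Adaptors that link transport kinesins to cargo were called in both directions as well. Of 19 adaptor and light chain genes tested, 9 were lower (47.4%, against 29.9% of all genes tested), 8 higher (42.1%, against 26.6%) and 2 not called, with a median log2 fold change of -0.13. CLSTN1 (calsyntenin), a membrane cargo adaptor of the light chains, was higher (373 ± 12.6 to 603 ± 36.6 CPM, 0.70, SE 0.06, adjusted p = 4.93e-06), as was FEZ2 (0.67, SE 0.10). MAPK8IP2, a JNK scaffold that binds light chains, was low and fell from 3.09 ± 0.233 to 0.797 ± 0.098 CPM (-1.95, SE 0.14, adjusted p = 1.8e-06). MADD, an adaptor of KIF1B cargo, was also lower (-0.67, SE 0.06, adjusted p = 7.27e-06).

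Cytoplasmic dynein and dynactin, the opposing minus-end-directed motor, had 6 genes lower, 5 higher and 8 not called of 19, with a median of 0.03. These shares (31.6% lower and 26.3% higher) were close to those of all genes tested (29.9% and 26.6%). The heavy chain DYNC1H1 was lower by -0.26 (SE 0.05, adjusted p = 0.00135). Among dynactin subunits, DCTN5 (0.47) and DCTN1 (0.38) were higher and ACTR1B (-0.42) and DCTN2 (-0.36) lower.

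**Figure D5:**
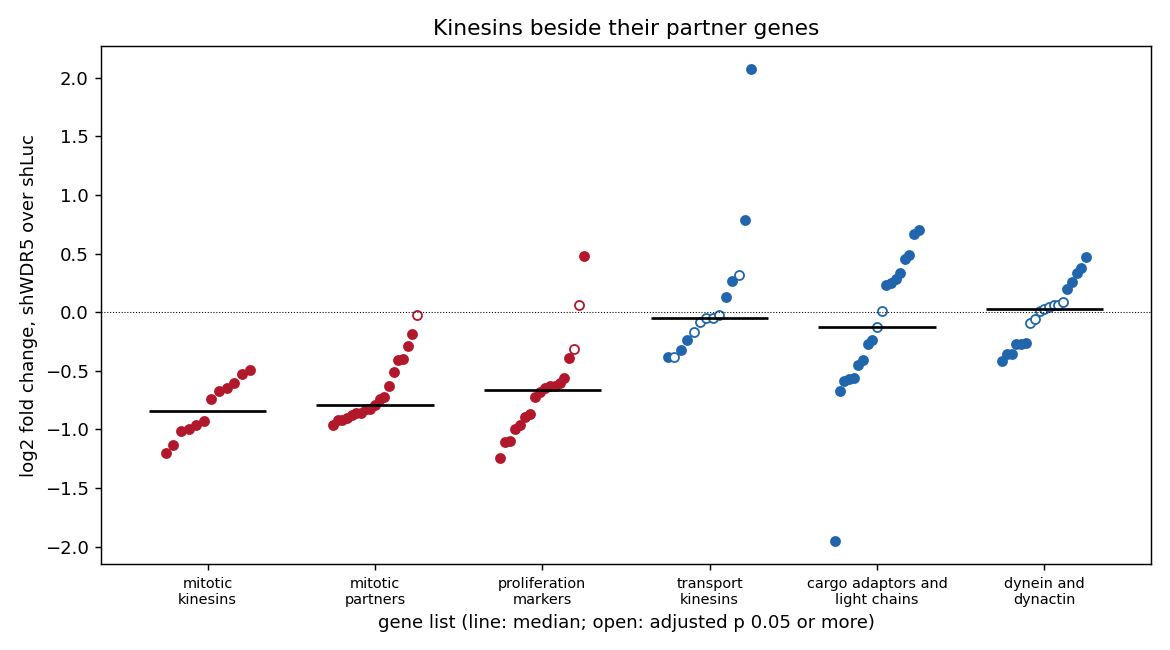
Log2 fold change of shWDR5 over shLuc (vertical axis) of each tested gene in 6 lists, with lines for the medians and open circles for genes not called. The medians of the mitotic kinesins, mitotic partners and proliferation markers are -0.84, -0.79 and -0.66, and those of the transport kinesins, adaptors and dynein and dynactin genes are -0.05, -0.13 and 0.03.

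The remaining 13 kinesins act mainly in cilia, at centrioles or on microtubule growth, and 9 passed the filter. Of these, 4 were lower (44.4%, against 29.9% of all genes tested), 3 higher (33.3%, against 26.6%) and 2 not called. KIF24, which depolymerizes centriolar microtubules and restrains cilium formation in cycling cells, was at 8.52, 8.74 and 8.62 CPM in shLuc and at 4.51, 4.29 and 4.37 in shWDR5. It fell to 50.9% with little spread (log2 fold change -0.97, SE 0.08, adjusted p = 3.52e-06), although 13.9% of its exon bases overlap UBAP1 on the other strand. KIF7, a regulator of Hedgehog signalling at the tip of the cilium, was at 10.4, 9.13 and 8.35 CPM in shLuc and at 5.05, 5.12 and 4.19 in shWDR5 (-0.96, SE 0.11, adjusted p = 4.3e-05). Its paralog KIF27 was at 3.81 ± 0.459 and 3.37 ± 0.171 CPM (SD, n = 3), with overlapping groups (-0.18, SE 0.11, adjusted p = 0.195).

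KIF26B, an atypical kinesin of the non-canonical Wnt pathway, rose the most of the kinesins with over 1 CPM in shLuc. It was at 1.38, 0.980 and 1.02 CPM in shLuc and at 3.37, 3.34 and 3.29 in shWDR5, 2.96-fold higher (log2 fold change 1.55, SE 0.14, adjusted p = 8.26e-06), from 38 to 68 reads per control library. KIF6, a motor of ciliated cells, was at 1.07, 0.748 and 1.12 CPM in shLuc and at 2.25, 1.94 and 2.29 in shWDR5 (1.12, SE 0.17, adjusted p = 0.000228). For both genes every silenced library was above every control.

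KIF21A and KIF21B, which limit microtubule growth, went in opposite directions. KIF21A was at 42.0, 47.3 and 46.7 CPM in shLuc and at 52.0, 55.3 and 57.4 in shWDR5 (log2 fold change 0.28, SE 0.07, adjusted p = 0.00521). KIF21B, the less abundant paralog, was at 3.76, 3.2 and 3.77 CPM in shLuc and at 2.40, 2.13 and 1.90 in shWDR5 (-0.74, SE 0.12, adjusted p = 0.000518). KIF2A, a depolymerase of the same family as KIF2C that serves spindles and interphase cells, was at 66.9, 72.6 and 79.8 CPM in shLuc and at 54.6, 59.0 and 63.7 in shWDR5. It fell (-0.31, SE 0.08, adjusted p = 0.00734). The ratio of KIF2A to KIF2C per length went from 0.723, 0.821 and 0.979 in shLuc to 1.25, 1.33 and 1.50 in shWDR5 (exact permutation p = 0.1, the smallest the design allows, and 0.14 adjusted over the 7 gene pairs). Of the pairs not described above, KIF23 with RACGAP1 and KIF4A with PRC1 also gave exact permutation p = 0.1. KIF20A with KIF20B gave 0.3 in the same test.

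KIF9, of which 18.6% of exon bases overlap the antisense RNA KIF9-AS1, was not called (0.12, SE 0.14, adjusted p = 0.493). KIF12 had no read in shLuc and 1 or 2 reads in each shWDR5 library. KIF25 had 0 or 1 read per shLuc library and 2 to 7 per shWDR5 library, and KIF26A had 0 to 3 reads throughout. KIF19, a motor of motile cilia, had no read in any library. KIF12, KIF25, KIF26A and KIF19 did not pass the filter and were not tested. For KIF12 and KIF25 every silenced library had more reads than every control, at counts too low for a fold change to be given. Among all genes tested, 29.9% had groups apart in the higher direction. Genes with reads numbered 19263 to 19578 in the shLuc libraries and 19827 to 20042 in the shWDR5 libraries.

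Counting only larger changes, 9 of the 12 mitotic kinesins were called lower with a decrease of at least 0.6 on the log2 scale, against 10.5% of all genes tested under the same rule, which also asks for over 0.5 RPKM. KIF20A, printed as -0.60, missed this limit before rounding, as did KIF11 and KIF18A by more. No transport kinesin was lower by this rule, and KIFC2 alone was higher (7.9% of all genes tested were). Groups that did not overlap in the lower direction were found for 12 of 12 mitotic and 3 of 14 transport kinesins, and for 32.4% of all genes tested. In the higher direction, such groups were found for 0 of 12 mitotic and 4 of 14 transport kinesins, and for 29.9% of all genes tested.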

How the data were processed

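Poly-A RNA of 3 shLuc and 3 shWDR5 libraries was sequenced on an Illumina HiSeq instrument. Per the labels and the study's methods, the authors aligned reads with TopHat2 2.1.0 to hg19 and counted them per gene with featureCounts; the deposited table holds raw read counts. The counting settings for strand and multi-mapping reads are not given in the sources used here. A second deposited table of the authors' edgeR 3.2.2 results (fold changes, F, p-values and FDR) was not used.

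Counts of 26334 genes were analysed with edgeR 4.0.16 in R 4.3.3 (filterByExpr, TMM, glmQLFit, glmQLFTest, Benjamini-Hochberg adjustment over 16117 genes, threshold 0.05), comparing shWDR5 with shLuc without covariates. The biological coefficient of variation was 7.23%. Standard errors were derived from the log2 fold change and the F statistic. CPM used TMM library sizes, and RPKM divided CPM by the table's gene length. Zero-count limits correspond to 3 reads and cover counting error only. The scripts were tested on simulated data in which few genes changed, whereas 56.5% of genes were called in the real data. That test therefore does not cover data in which most genes change.

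The kinesins, their grouping and the other lists were chosen with earlier results of these data known. Values in every library were given for up to 10 mitotic and 10 transport kinesins and 6 others by smallest adjusted p, and for the most abundant of each group. From each list of partners up to 4 called genes with the largest change were named, with MKI67, FOXM1, CENPE and complex partners. NUMA1, BIRC5, CCNE1, KLC3, DYNC1H1, E2F4, E2F5, E2F7, LIN54 and the cell markers were named after their values were seen. Ratios of gene pairs were compared by exact permutation tests. Alternatives were DESeq2 1.42.0, its size factors in edgeR, a likelihood ratio test, no filter, a replicate block, another grouping, the study's call rule and leaving out each library. Promoter sequences are from RefSeq (GRCh38.p14) and were not mixed with hg19 coordinates.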

Additional observations from a re-analysis of the deposited data

How the results depend on the processing

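The 12 mitotic kinesins and WDR5 were called lower in every alternative fit that kept the 0.05 threshold alone. The median log2 fold change of the mitotic kinesins was -0.84 to -0.77 when a single library was left out, and -0.74 when KIF2A was counted as mitotic. The study's call rule gave 2962 genes in all, with 9 mitotic kinesins lower, 0 transport kinesins lower and 1 higher. Leaving out a single library gave 8076 to 8735 called genes and 2 to 3 transport kinesins called higher, the lowest number without shLuc replicate 1. KIF3A, which was not called, ranged from -0.15 to 0.01 (turning above 0 without shLuc replicate 2). KIF13B, also not called, was at -0.06 without shLuc replicate 3 and turned to 0.05 without shLuc replicate 1, 0.02 without shWDR5 replicate 3 and 0.06 without both replicate 1 libraries, an alternative chosen after seeing the data. KIF17 was not called without shLuc replicate 1 or without both replicate 1 libraries (adjusted p = 0.0517 and 0.0688, edgeR). KIF1C was also not called with no filter or with the likelihood ratio test (adjusted p = 0.0976 and 0.0707, edgeR). The cause of these changes was not tested. Depth limits the kinesins with few reads, KIF17, KIF5A and KIF5C among them.

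Replicate numbers are shared between groups, but same-numbered libraries deviated together only in part (r = 0.372, 0.036 and 0.116), so the numbers were not taken to pair the libraries. With a replicate block, 10412 genes were called, the mitotic median stayed at -0.84, and KIF5B was called lower (-0.17, adjusted p = 0.00411, edgeR). Not every library correlated best with its own number, since shLuc replicate 2 correlated with shWDR5 replicate 3 at r = 0.21.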
